A study of Mus musculus with 13 samples.

Results

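Bone matrix and mineralization genes were followed here across sorted cells of the newborn mouse cochlea. The 6 genes are Spp1, Ibsp, Alpl, Runx2, Sparc and Mgp, of 18038 genes on the array, and 9 of its 25697 probes measure them. Probes were taken by gene symbol: 4 genes stand in the table under these symbols, and 2, Alpl and Mgp, under the older symbols Akp2 and Mglap, which their RefSeq accessions resolve. The genes were chosen from their measured levels on these same 13 arrays, so their levels and differences are given as a description, with no p-value. Tests are given only for other genes, those of the bone pathway and marker lists. These lists were also chosen with earlier results of these arrays known, so their tests and counts are not independent of that choice.

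All samples were cochlear cells of 3-day-old C57BL6 mice with the Math1-nGFP reporter, whose nuclear GFP marks hair cells, sorted by flow cytometry and measured as total RNA on 13 Illumina BeadChip arrays. BM, labelled as cells below the basilar membrane (GFP-negative, low CD271, CD326-negative), had 1 array, B. CD271high (GFP-negative, high CD271; suspected cochlear macrophages in the labels) had 3, A to C. HC, the GFP-positive hair cells, had 4, A to D. GER, the greater epithelial ridge (GFP-negative, low CD271, high CD146, CD326-positive), had 3, A to C. DC, labelled as Deiters' and Claudius cells (GFP-negative, low CD271, low CD146, CD326-positive), had 2, A and B. The labels do not say whether replicates came from separate animals, so the spread between them may be technical.

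Bone matrix is laid down by osteoblasts as type I collagen and a set of acidic glycoproteins that bind calcium, and crystals of calcium phosphate then form in it. Runx2 is the transcription factor that osteoblasts need to form, and Sp7 (osterix) acts after it. Alpl, tissue-nonspecific alkaline phosphatase, breaks down pyrophosphate, an inhibitor of mineral, and Ibsp (bone sialoprotein) can start crystals. Spp1 (osteopontin) and Mgp (matrix Gla protein) restrain mineral, the second mainly in cartilage and vessel walls, and Sparc (osteonectin) binds collagen and calcium in many tissues. None of these genes is made in bone alone: Spp1 is also known from macrophages, glia and epithelia, and the cochlea lies in a bony capsule with cartilage-like and fibrous tissue around its epithelium.

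Spp1 and Ibsp are neighbours on mouse chromosome 5, where the protein-coding genes Sparcl1, Dspp, Dmp1, Ibsp, Mepe and Spp1 follow each other in RefSeq. Their promoters are shown because these neighbours differed in pattern: Ibsp was high in BM alone and Spp1 in both BM and CD271high. The 250 bases before the first listed start of each gene, from RefSeq on GRCm38.p6, plus strand, at chr5:104299037-104299286 for Ibsp and chr5:104434861-104435110 for Spp1, read 5′ to 3′ with motif matches in capitals:
Ibsp: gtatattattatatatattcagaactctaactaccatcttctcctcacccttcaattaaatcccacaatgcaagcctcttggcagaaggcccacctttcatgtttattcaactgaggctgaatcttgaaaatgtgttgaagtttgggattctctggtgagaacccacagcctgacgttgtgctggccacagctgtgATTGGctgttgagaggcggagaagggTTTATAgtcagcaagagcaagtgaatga
Spp1: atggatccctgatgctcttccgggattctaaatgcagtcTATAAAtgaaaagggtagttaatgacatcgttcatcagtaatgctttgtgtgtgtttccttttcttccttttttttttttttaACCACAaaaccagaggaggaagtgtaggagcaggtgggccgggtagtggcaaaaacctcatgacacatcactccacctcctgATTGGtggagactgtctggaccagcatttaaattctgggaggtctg
The motifs searched on both strands were ACCACA, the core bound by Runx factors, CCAAT and TATAAA, and no match shared a base with another. Spp1 held ACCACA 123 to 128 bases before its start, CCAAT in reverse (ATTGG) 42 to 46 bases before it and TATAAA 206 to 211 bases before it. Ibsp held CCAAT in reverse 50 to 54 bases before its start. It held TATAAA in reverse 23 to 28 bases before its start, and no match to the Runx core. Of all 32851 promoter windows of this length, 14.0% held ACCACA, 33.8% CCAAT and 12.4% TATAAA in either direction. Among the 7 windows of the 5 genes in the RefSeq promoter table, the first of Spp1 and that of Runx2, with 1 match each, held ACCACA.

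Levels are log2 units after background correction and quantile normalization, so that 1 unit is a factor of 2, and a probe is called detected on an array where its detection p against negative controls is under 0.01. The share of probes detected on an array was 40.2% to 45.2%, and the dimmest detected probe stood at 6.76 to 7.35 depending on the array. Detection split the 6 genes: Sparc and Mgp were detected on all 13 arrays, Alpl on 7, Spp1 on 6, Ibsp on 2 and Runx2 on 0. The 5 genes other than Runx2 passed the filter of detection on at least 2 arrays and were part of the fit. HC, CD271high and BM were checked against marker lists, while GER and DC had no list of their own. In HC 8 of 8 hair cell genes rose over the GER and DC mean (limma, adjusted p under 0.05), as did 19.5% of all tested genes. In CD271high 13 of 13 tested macrophage genes and 5 of 5 Schwann cell genes were higher than in the other replicated sorts (same test and threshold), as were 19.4% of all tested genes. The epithelial list, at 12.03 to 12.31 in CD271high, was at 11.71 to 12.70 over HC, GER and DC arrays. In BM 1 of 14 macrophage genes was detected, and the epithelial list was at 9.48. HC D stood apart from HC A, B and C on several lists and is given separately where it bears on a value.

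**Figure D1:**
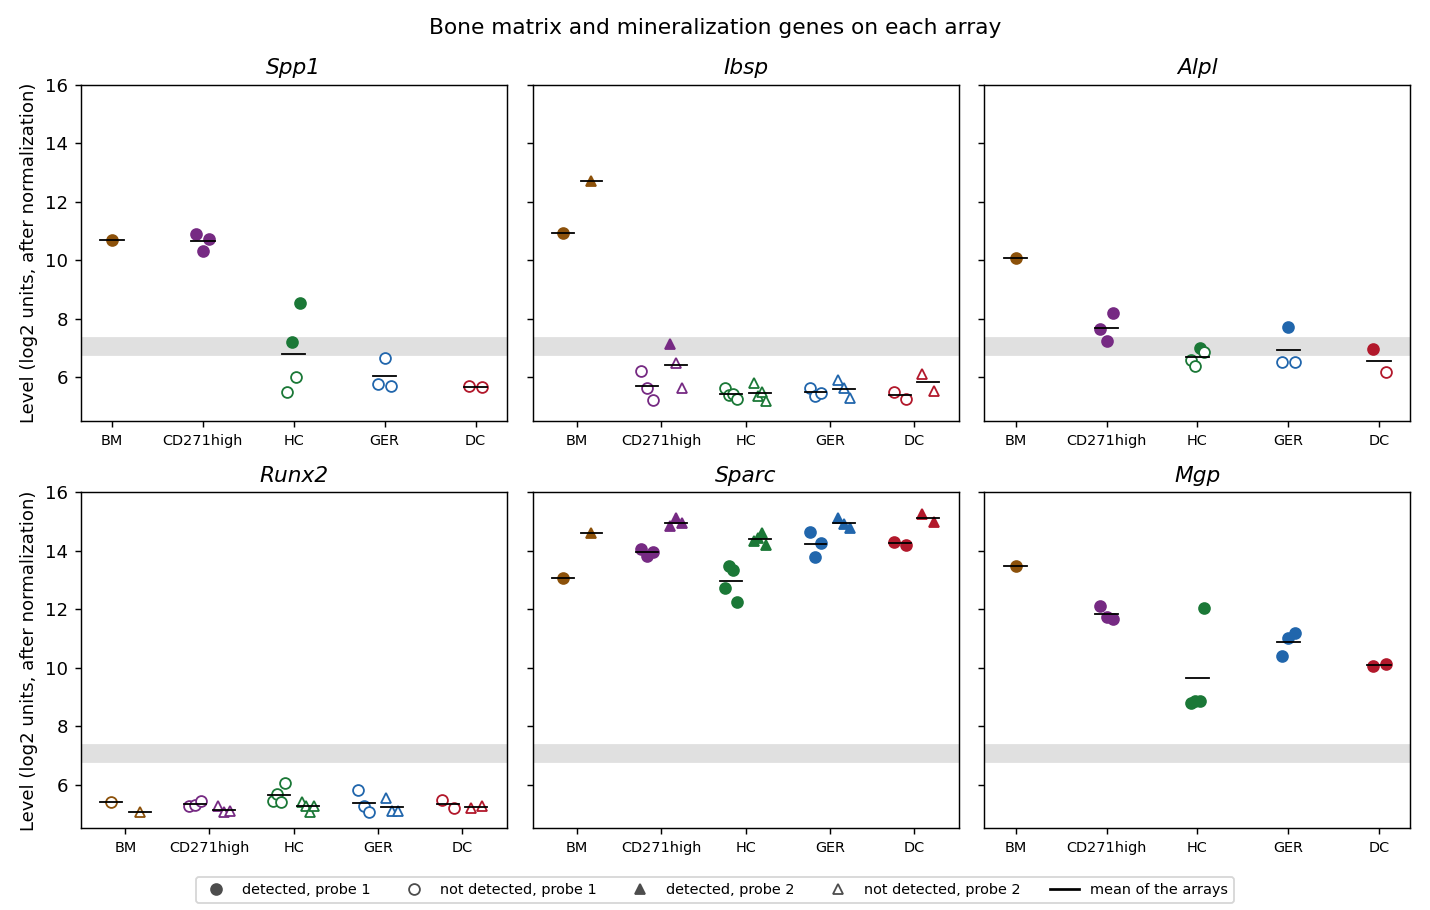
Level of each probe (log2 units, y axis) on every array, by population (x axis), with filled symbols for detected and open symbols for undetected values, a black line at the mean, and a grey band for the 6.76 to 7.35 range of the dimmest detected probe per array. Ibsp, Alpl and Mgp are highest on the BM array, Spp1 is as high in CD271high as in BM, Sparc is near the top of the scale everywhere, and Runx2 stays below the band.

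Spp1, the secreted glycoprotein osteopontin, was high in CD271high and in BM and near background elsewhere. Its level was 10.89, 10.31 and 10.73 on CD271high A, B and C. It was 5.49, 7.20, 5.99 and 8.54 on HC A to D, 5.78, 6.66 and 5.68 on GER A to C, and 5.69 and 5.65 on DC A and B. The 3 CD271high arrays lay above all 9 others, with HC B and D the only others of these with a detected signal. CD271high averaged 10.64 ± 0.30 (SD, n = 3), against 6.81 ± 1.36 in HC (n = 4), 6.04 ± 0.54 in GER (n = 3) and 5.67 ± 0.03 in DC (n = 2). Spp1 was undetected on 7 of these 9 arrays, so folds against them are lower bounds, with each undetected value raised to the dimmest detected probe of its array. CD271high was at least 8.89-fold above HC, 10.4-fold above GER and 12.8-fold above DC. As read, with undetected values left in, the difference from the mean of the 3 was 4.47 ± 0.50 (SE), and 12.7% of all tested genes were likewise higher with no overlap. It was 4.73 within beadchip 1 and 4.43 within beadchip 2, which holds no DC array, and 4.67 without HC D. On the authors' log2 scale, which has no background correction, it was 2.71.

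The BM array had a Spp1 level of 10.68, inside the CD271high range. It was at least 10.7-fold above GER and 13.1-fold above DC, where Spp1 was undetected. Between HC and the other epithelial sorts no difference can be given: Spp1 was undetected on all GER and DC arrays, and the HC mean of 6.81, with 2 of 4 arrays detected, was within the range of the dimmest detected probe.

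Marker lists of other cells were set beside Spp1. The mean level of 5 Schwann cell and glial genes was 14.27 in BM, 13.30 to 13.66 in CD271high, 11.84 on HC D, and 8.80 to 9.45 on HC A to C, 9.53 to 9.92 in GER and 9.02 to 9.39 in DC. The macrophage list of 13 genes was at 6.36 in BM and 12.61 to 12.71 in CD271high, against 6.33 to 7.10 in HC, 5.58 to 5.77 in GER and 5.99 to 6.60 in DC. Of the 14 macrophage genes on the array, 1 was detected on BM. The osteoclast list of 4 genes was at 9.21 in BM and 8.97 to 9.47 in CD271high. It was at 7.61 to 8.14 in HC, 7.08 to 7.51 in GER and 7.33 to 7.88 in DC. Its genes differed between BM and CD271high: Ctsk was at 12.67 on BM and averaged 9.28 in CD271high. Tnfrsf11a averaged 9.44 in CD271high and was undetected on BM. Across the 13 arrays Spp1 had a Pearson correlation of 0.97 with the Schwann list, 0.93 with the osteoclast list, 0.86 with the osteoblast regulators, 0.79 with the macrophage list, 0.75 with the fibroblast list and 0.61 with the pericyte list. With the other bone lists it was 0.54 for matrix genes, -0.02 for mineral enzymes and transporters and -0.52 for osteopontin receptors. It was 0.24 for cartilage, 0.13 for endothelium, -0.12 for melanocytes, -0.26 for hair cells and -0.48 for epithelium. These correlations describe arrays that fall into a high and a low group. The part of these cells in the Spp1 level was not tested. In sorted bulk RNA, more cells of a type and more RNA per cell cannot be told apart.

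Mgp, a vitamin K-dependent inhibitor of calcification, was detected on every array and was highest in BM. Its level was 13.48 on BM, 12.12, 11.72 and 11.68 on CD271high A, B and C, and 8.80, 8.85, 8.85 and 12.06 on HC A to D. It was 10.41, 11.01 and 11.20 on GER A to C and 10.07 and 10.14 on DC A and B. BM lay above all 12 other arrays, by 1.36 or 2.57-fold over the next, CD271high A. All CD271high arrays lay above all GER and DC arrays and above HC A to C, and HC D was inside the CD271high range. CD271high averaged 11.84 ± 0.25 (SD, n = 3), against 9.64 ± 1.61 in HC (n = 4), 10.87 ± 0.41 in GER (n = 3) and 10.10 ± 0.05 in DC (n = 2).

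The Mgp level of HC rested on HC D. With all 4 arrays HC differed from GER and DC by -0.85 ± 0.58 (SE) and the arrays overlapped. Without HC D the difference was -1.66, the HC mean was 8.83 ± 0.03 (SD, n = 3), and the 3 remaining arrays lay below every GER and DC array. HC D was 9.36-fold above the mean of HC A to C for Mgp, and its Spp1 level of 8.54 was also the highest of HC. On HC D the pericyte and smooth muscle list was at 9.36, against 7.22 to 7.45 on HC A to C, the fibroblast list at 8.37, against 7.28 to 7.38, and the Schwann list at 11.84, against 8.80 to 9.45, while its hair cell list, at 13.24, was near the 13.39 to 13.47 of the others. The part of such cells in the Mgp level of HC D was not tested.

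In GER, Mgp lay above DC on all arrays, by 0.77 ± 0.78 (SE), a difference no larger than its error even though the arrays did not overlap; 16.6% of tested genes were higher in GER with no overlap. CD271high differed from the mean of HC, GER and DC by 1.64 ± 0.57 (SE), with overlap through HC D alone, and by 1.91 without that array. Within beadchip 1 and beadchip 2 the CD271high difference was 1.83 and 1.57, and the HC difference was -1.61 and -1.28. In order of their means the populations ran BM, CD271high, GER, DC and HC, and HC with its array D overlapped all of these but BM.

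Ibsp, an integrin-binding sialoprotein of mineralizing bone and cementum, was a BM signal. Its probes read 10.94 and 12.71 on BM. The second probe read 7.14, 6.47 and 5.63 on CD271high A, B and C, 5.20 to 5.78 in HC, 5.28 to 5.89 in GER, and 6.11 and 5.53 in DC. It was detected only on BM and CD271high A. The first was detected on BM alone and read 5.21 to 6.20 on the other 12 arrays. BM was at least 12.1-fold above every other array by probe 1 and at least 41.2-fold by probe 2. By probe 2 it was at least 48.2-fold above HC, 43.7-fold above GER and 53.6-fold above DC. On the authors' log2 scale, which keeps the background, probe 2 was 19.9-fold above CD271high A. No difference between CD271high and the epithelial sorts is given, since HC, GER and DC were undetected on all 9 arrays and the CD271high mean on probe 2 was 6.41, below the dimmest detected probe.

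Alpl, the phosphatase of mineralizing cells, was also highest in BM, at 10.07. It was 7.66, 7.24 and 8.18 on CD271high A, B and C, 6.59, 6.36, 6.98 and 6.85 on HC A to D, 6.52, 7.72 and 6.52 on GER A to C, and 6.96 and 6.17 on DC A and B. BM was 3.70-fold above the highest other array, CD271high C. The CD271high arrays were all detected and overlapped the rest through GER B; HC C, GER B and DC A were the others with a detected signal. CD271high averaged 7.69 ± 0.47 (SD, n = 3), against 6.70 ± 0.28 in HC (n = 4), 6.92 ± 0.69 in GER (n = 3) and 6.57 ± 0.56 in DC (n = 2). As read, with 6 of the 9 other arrays undetected, its difference from the mean of these 3 was 0.97 ± 0.29 (SE), at least 1.42-fold with undetected values raised as above. The difference was 0.95 within beadchip 1 and 1.04 within beadchip 2, and 0.41 on the authors' log2 scale. HC, GER and DC could not be ordered: HC differed from GER and DC by -0.05 ± 0.29 (SE) and GER from DC by 0.35 ± 0.39.

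BM had 1 array, so its values have no replicate error. The error within it is that of the beads that carry a probe: 34 to 59 beads per probe gave a standard error of 4.36% to 8.10% of the signal for the 9 probes. Ibsp, Alpl and Mgp, 3 of the 5 genes in the fit, were at least 2-fold above all 12 other arrays, as were 3.26% of all tested genes.

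Sparc, a collagen-binding matrix protein, was among the brightest transcripts of every population by its probe 2. On probe 2 it read 14.63 on BM, 14.85, 15.11 and 14.95 on CD271high A, B and C, and 14.34, 14.44, 14.61 and 14.20 on HC A to D. GER A to C read 15.13, 14.92 and 14.79, and DC A and B 15.26 and 14.97. In raw signal this probe ranked between place 7 and place 194 of all probes on its array, at 19460 to 37774, where the brightest probe of each array read 39418 to 46335. HC lay below all GER and DC arrays, by 0.63 ± 0.13 (SE; difference -0.63, 1.55-fold lower), and BM, at 0.23 above the HC mean, was next to HC.

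Probe 1 of Sparc was dimmer and also put HC lowest, with a wider gap. In raw signal it ranked between place 95 and place 1569 on its array, at 5040 to 24212. It read 13.06 on BM, 14.07, 13.83 and 13.97 on CD271high A to C, and 12.74, 13.48, 13.35 and 12.25 on HC A to D, against 14.66, 13.80 and 14.26 on GER A to C and 14.30 and 14.22 on DC A and B. HC was lower than GER and DC by -1.29 ± 0.25 (SE), or 2.45-fold, again with no overlap; 20.3% of tested genes were lower in HC with no overlap. The probes differed in the size of the gap, and whether the top of the scale compresses probe 2 was not tested. The probe 2 difference was -0.73 within beadchip 1, -0.38 within beadchip 2 and -0.57 without HC D. CD271high, GER and DC overlapped on probe 2. On probe 1 GER overlapped both others, but all CD271high arrays lay below both DC arrays. CD271high differed from the mean of HC, GER and DC by 0.15 ± 0.13 (SE) on probe 2, and GER from DC by -0.17 ± 0.18.

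Runx2 was not detected on any array by either probe. Its levels were 5.05 to 6.06 on probe 1 and 5.06 to 5.55 on probe 2, and its lowest detection p over both probes and all arrays was 0.0915. On BM the probes read 5.40 and 5.07. At this sensitivity no level of Runx2 can be given for any population, and the probes do not show that the transcript is absent. Sp7, which acts after Runx2 in osteoblasts, was at 10.62 on BM, at least 9.66-fold above every other array, and Cbfb, the partner subunit of Runx factors, was detected on all 13 arrays with 13.32 on BM.

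Other genes of the pathway were taken from 4 lists of matrix proteins, mineral enzymes and transporters, osteoblast regulators, and osteopontin receptors. The lists hold 70 genes and none of the 6, and 67 were on the array. In BM 41 of these 67 were detected, and the share of all genes detected there was not computed. On at least 1 array 50 of the 67 were detected, beside 10692 of all 18038 genes. Of the 50 detected on at least 1 array, 9 were at least 2-fold above all 12 others with undetected values raised to the dimmest detected probe, as were 3.59% of all genes so detected. With values as read they were 11 of 50, against 4.28%: the other 2, Fgfr2 and Itgb8, were detected on BM alone, at 7.68 and 7.38, close to the dimmest detected probe. By role the 9 were 4 of 15 detected matrix genes, 1 of 12 mineral enzymes and transporters, 3 of 16 regulators and 1 of 7 receptors. The chains of type I collagen led the matrix genes: Col1a1 was at 10.28 on BM and at most 7.25 elsewhere, and Col1a2 at 12.60 and at most 9.42. Bgn, the proteoglycan biglycan, was at 14.20 and at most 11.88 elsewhere, and Phex, an endopeptidase of osteoblasts and osteocytes, at 9.40 and at most 6.84.

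Among the regulators, Twist1 and Twist2, which hold back Runx2 activity, were at 11.01 and 10.66 on BM and at most 7.85 and 7.06 elsewhere. Smpd3, a sphingomyelinase needed for bone mineralization in mice, was at 9.92 on BM and at most 7.49 elsewhere. The receptor subunit Itga5 was at 9.72 on BM and at most 7.81 elsewhere. Of the 67 genes 17 were detected on no array, among them Bglap and Bglap2 (osteocalcin), Dmp1, Phospho1, Sost and Postn, and Mepe was detected on 1 that was not BM. Of the chromosome 5 neighbours, Ibsp, Spp1 and Sparcl1 were detected on BM, and Dspp, Dmp1 and Mepe were not.

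**Figure D2:**
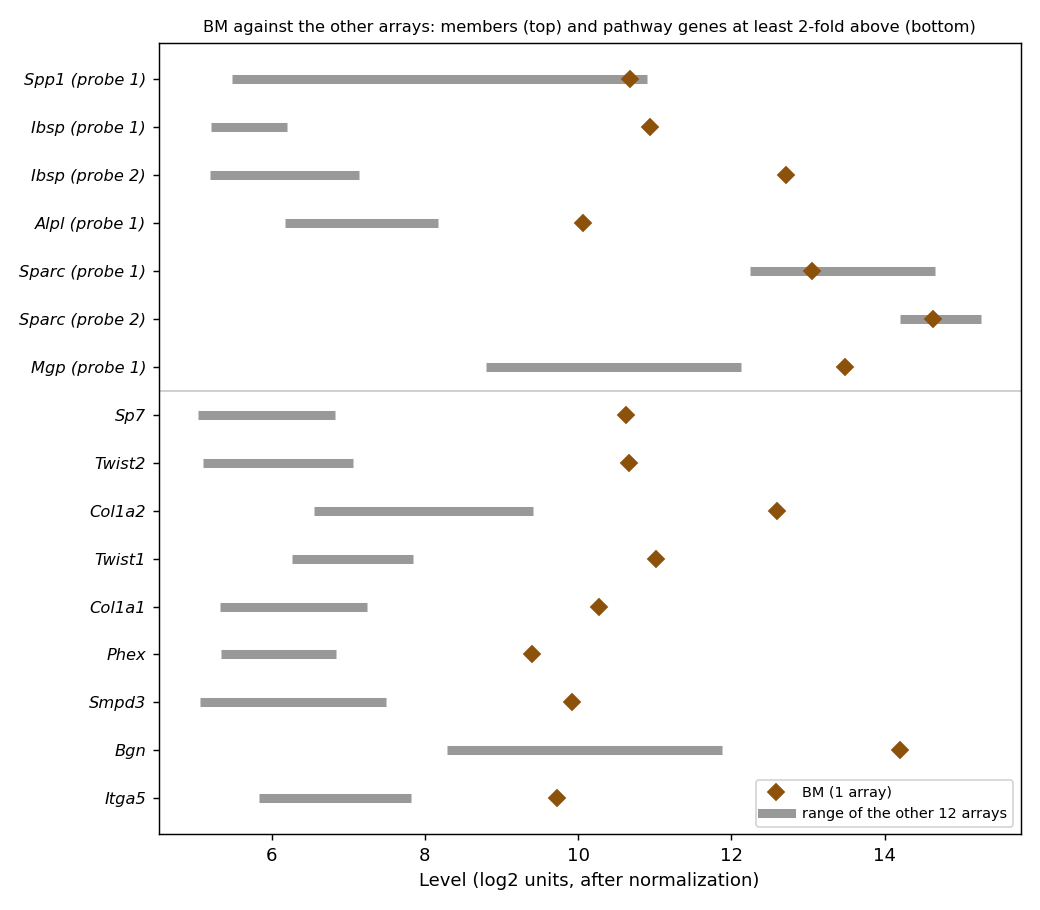
Level on the single BM array (diamonds, log2 units, x axis) and the range of the other 12 arrays (grey bars) for the probes of the genes other than Runx2 (top) and the 9 pathway genes at least 2-fold above all other arrays with undetected values raised to the dimmest detected probe (bottom). Ibsp, Alpl and Mgp lie right of their bars, Spp1 and Sparc within them, and the 9 pathway genes, among them Sp7 at 10.62, lie right of theirs.

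Lists of connective and vascular cells were high on BM as well. The fibroblast and mesenchyme list was at 11.35 on BM, 8.22 to 8.73 in CD271high and 6.79 to 8.37 in the rest. With undetected values raised, 7 of its 9 detected genes were at least 2-fold above all other arrays. So were 3.59% of all genes detected on at least 1 array. The pericyte list was at 10.58 on BM, against at most 9.36 elsewhere, and the endothelial list at 11.01, against at most 9.59. Of the osteoclast list, Ctsk (cathepsin K) was at 12.67 on BM and at most 9.59 elsewhere, and Mmp9 at 9.74 and at most 8.40. The other tested genes went the other way. Nfatc1 was at 8.80 on BM and at least 9.57 elsewhere, and Tnfrsf11a was undetected on BM. Acp5 and Calcr were detected on no array. The part of each of these cells in the BM levels of Ibsp, Alpl and Mgp was not tested.

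**Figure D3:**
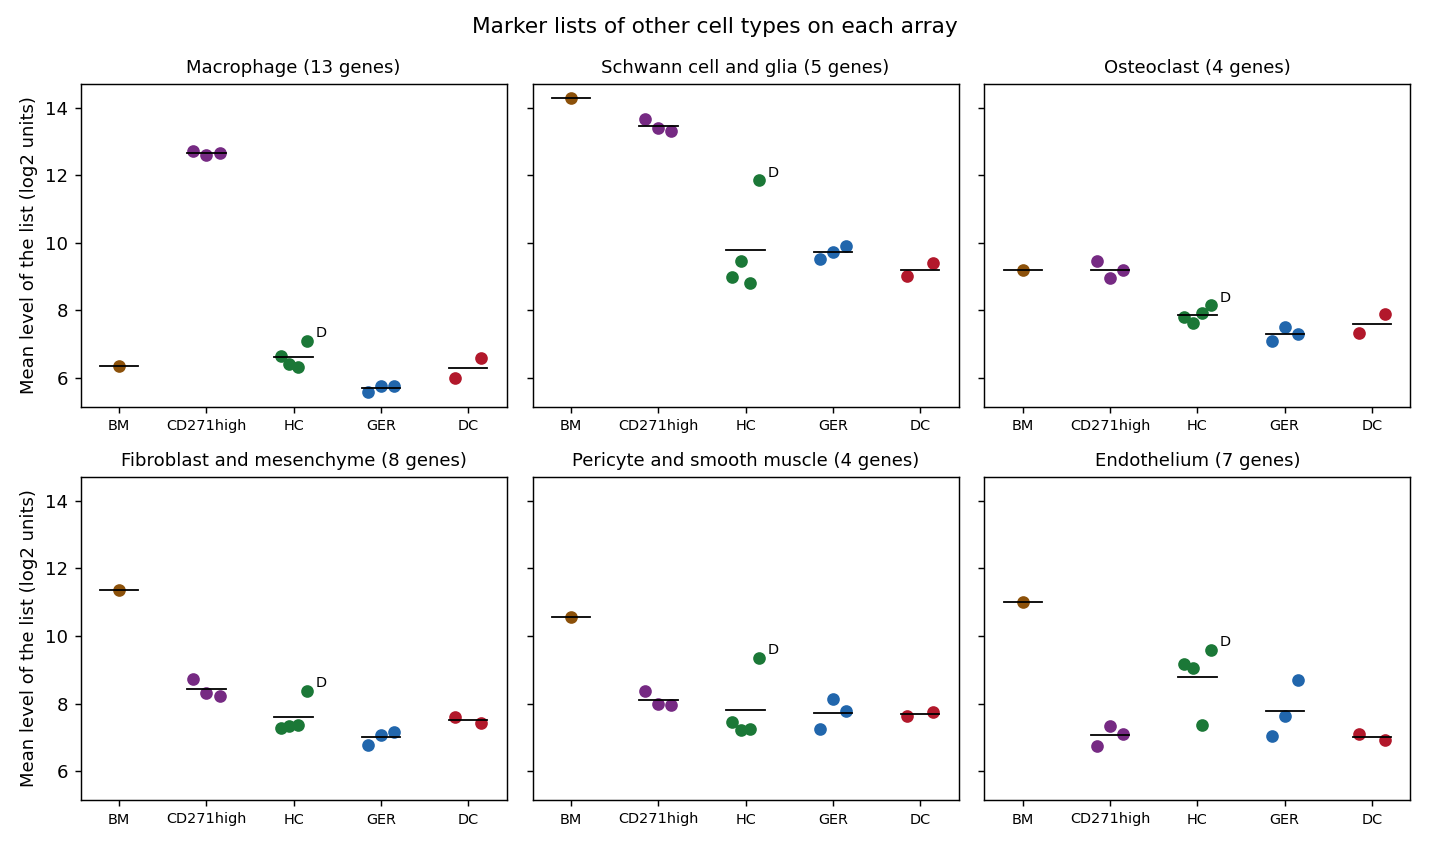
Mean level (log2 units, y axis) of the tested genes of 6 marker lists on each array, by population (x axis), with a black line at the mean and HC D lettered. The macrophage list is high in CD271high alone at 12.61 to 12.71, the Schwann list in BM, CD271high and HC D, and the fibroblast, pericyte and endothelial lists are highest on BM.

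In CD271high, of 44 tested pathway genes 16 were higher and 8 lower than the mean of HC, GER and DC, and 20 did not pass (limma, two-sided, Benjamini-Hochberg adjusted p under 0.05). Of the 16, 4 (Col1a1, Sp7, Twist2 and Runx1) were detected on no HC, GER or DC array and on 1 or 2 of CD271high, too near background for a fold; of the 8, Pth1r was undetected in CD271high. Over all 10088 tested genes 19.4% were higher and 24.2% lower. The median difference of the list was 0.21, against -0.08 over all genes. Within beadchip 1 the counts were 14 higher and 11 lower, and within beadchip 2, which has 1 CD271high array and no DC, 6 and 4.

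Of 14 regulators 8 passed as higher in CD271high, 5 of them detected on at least 1 array of each side, and 1 as lower. Mef2c, a transcription factor of muscle, neural, myeloid and bone cells, averaged 11.44 in CD271high and 7.22 in the other sorts, a difference of 4.23 ± 0.31 (SE, adjusted p = 4.75e-07). In the other sorts Mef2c was near background, detected on 2 of 4 HC, 2 of 3 GER and 1 of 2 DC arrays, so this difference is uncertain in size. Tnfrsf11b, osteoprotegerin, the decoy receptor that holds back osteoclasts, rose by 2.24 ± 0.40 (adjusted p = 0.000664), and Dlx3, a homeobox factor of skeletal and epithelial cells, by 2.24 ± 0.17 (adjusted p = 7.19e-07). The Tnfrsf11b difference is uncertain in size, since its HC mean of 6.75, with 2 of 4 arrays detected, was near background. Pth1r, the parathyroid hormone receptor, was detected on all HC arrays and undetected in CD271high, GER and DC. It passed as lower in CD271high (adjusted p = 2.34e-06) through HC alone, and the fold against the mean of the 3 was at least 1.27. Sp7 passed (adjusted p = 0.0177) at a mean of 6.41, below the dimmest detected probe, with 1 of the 3 CD271high arrays and none of the 9 others detected, so no fold is given.

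Of 13 matrix genes 5 passed as higher and 2 as lower. Bgn rose by 2.10 ± 0.46 (SE, adjusted p = 0.00296) and Ogn, osteoglycin, by 2.02 ± 0.21 (adjusted p = 8e-06). Tnc, tenascin C, fell by 2.60 ± 0.23 on the log2 scale (adjusted p = 2.78e-06), and Sparcl1, a relative of Sparc, fell by 1.36 ± 0.15 (adjusted p = 1.42e-05). Col1a2 rose by 1.23 ± 0.35 (adjusted p = 0.0129), to a mean of 8.76 that was under the 12.60 on BM. Col1a1 passed as well (adjusted p = 0.0318), but its mean of 6.82 was at the dimmest detected probe, with 1 of the 3 CD271high arrays and none of the 9 others detected, and no fold is given.

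Of 11 mineral enzymes and transporters 2 rose and 3 fell, and of 6 osteopontin receptors 1 rose and 2 fell. Ggcx, the carboxylase that activates Mgp, rose by 1.11 ± 0.25 (SE, adjusted p = 0.00355), and Fam20c, the kinase of secreted matrix proteins such as osteopontin, by 0.89 ± 0.17 (adjusted p = 0.00123). Car2, carbonic anhydrase, fell by 1.10 ± 0.32 (adjusted p = 0.0147) and Ank, a pyrophosphate exporter, by 0.61 ± 0.12 (adjusted p = 0.0015). The osteopontin receptors Cd44 and Itgb6 fell by 2.08 ± 0.36 (adjusted p = 0.000515) and 2.02 ± 0.18 (adjusted p = 2.76e-06), and Itgb1 rose by 0.47 ± 0.14 (adjusted p = 0.0181). Itgb1 averaged 8.47 in CD271high, 8.22 in GER, 8.34 in DC and 7.43 in HC. Its rise came mainly through HC, and its CD271high and DC arrays overlapped. Of the replicated sorts CD271high had the highest Spp1 level and the lowest mean levels of Cd44 and Itgb6, 8.26 and 10.45.

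Osteoclast and cartilage genes were set beside these, and 19.4% of all tested genes were higher in CD271high. Of 4 tested osteoclast genes 3 were higher in CD271high, among them Tnfrsf11a, the receptor RANK, by at least 5.01-fold (adjusted p = 7.47e-07) and Ctsk by 1.70 ± 0.33 (SE, adjusted p = 0.00128), and Tnfrsf11a was undetected on BM. Of 8 tested cartilage genes 3 were higher, led by Ucma, a secreted protein of cartilage, by 3.24 ± 0.41 (adjusted p = 4.48e-05). The macrophage list stands beside both, and its part in them was not tested.

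**Figure D4:**
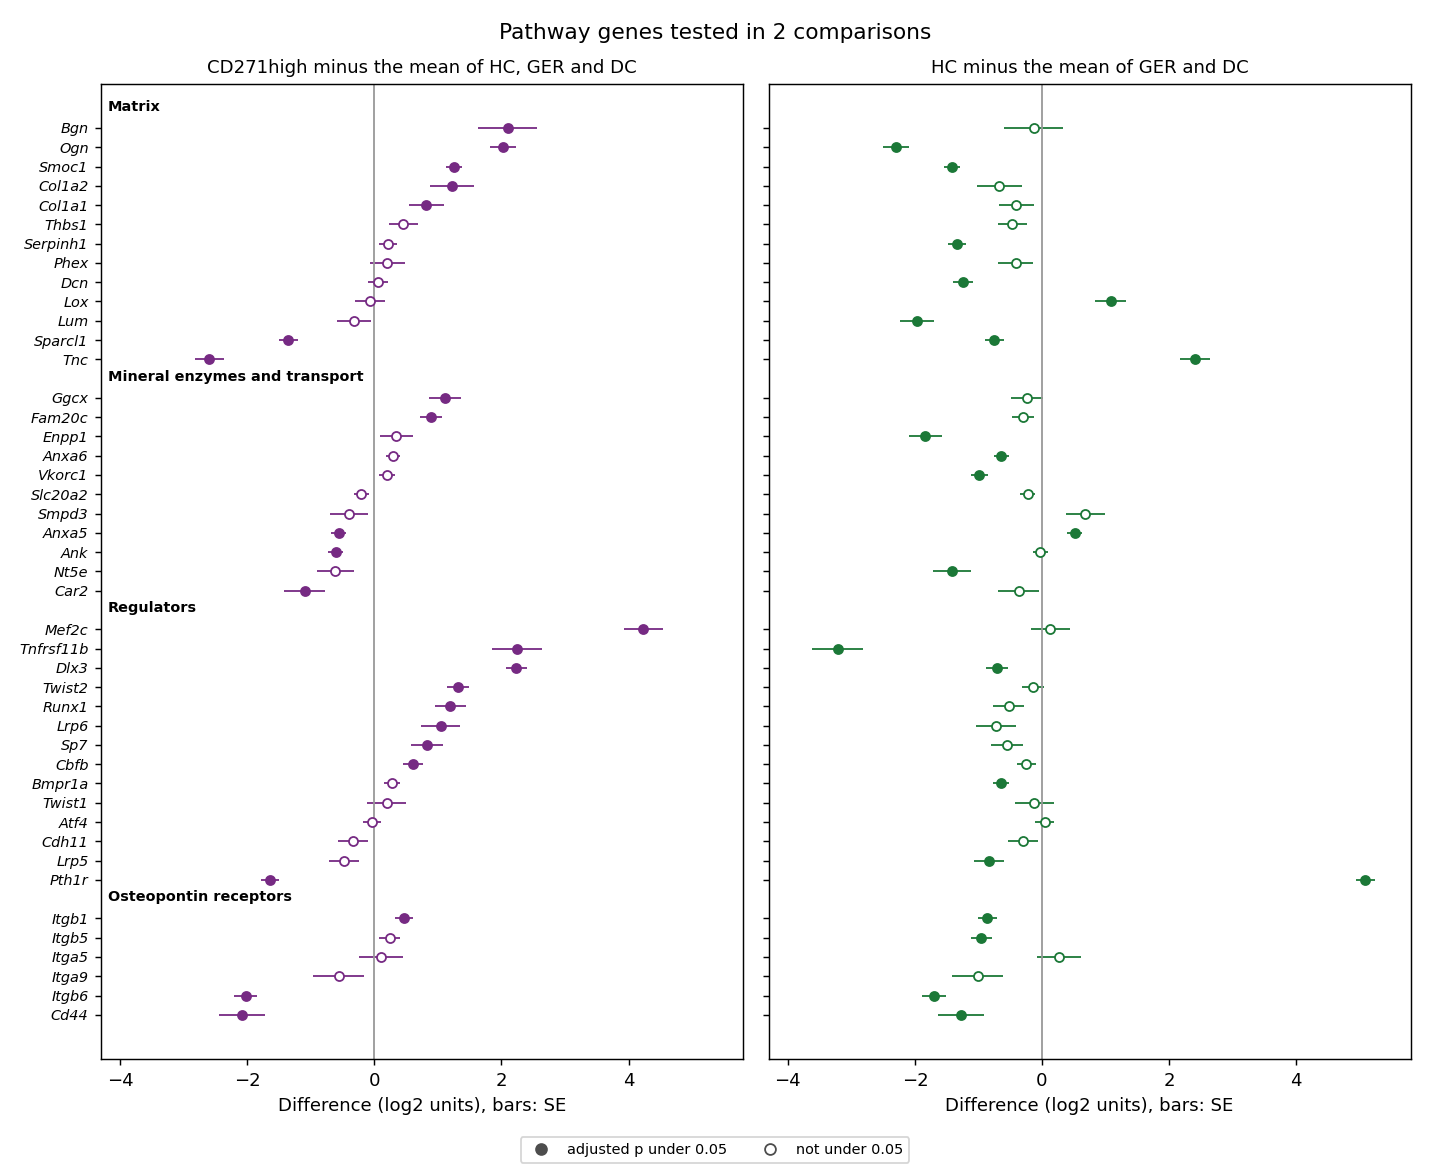
Differences (log2 units, x axis, bars are SE) of the 44 tested pathway genes for CD271high minus the mean of HC, GER and DC (left) and HC minus the mean of GER and DC (right), with filled points where the adjusted p was under 0.05. Regulators lie mostly right of 0 in CD271high, with 8 of 14 filled on the right and 1, Pth1r, filled on the left. Of those on the right, Sp7, Twist2 and Runx1 are near background. Most filled points lie left of 0 in HC, 18 against 4.

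More pathway genes fell than rose in hair cells. In HC 4 of the 44 genes were higher and 18 lower than the mean of GER and DC, and 22 did not pass; over all genes 19.5% were higher and 26.5% lower. The median difference was -0.54, against -0.09 over all genes. Within beadchip 2, which has 3 HC arrays, 1 GER and no DC, 4 were higher and 4 lower, and within beadchip 1, with 1 HC array, 3 and 14.

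Of 13 matrix genes 6 fell and 2 rose in HC. Ogn fell by 2.29 ± 0.21 (SE, adjusted p = 2.74e-06), Lum, lumican, fell by 1.97 ± 0.27 (adjusted p = 8.79e-05) and Smoc1, a calcium-binding relative of Sparc, fell by 1.41 ± 0.13 (adjusted p = 2.38e-06). Tnc rose by 2.41 ± 0.23 (adjusted p = 5.36e-06), with means of 14.06 in HC and 11.65 in GER and DC.

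Of 11 mineral genes 4 fell and 1 rose. Enpp1, which makes pyrophosphate, fell by 1.83 ± 0.26 (SE, adjusted p = 0.00013), Nt5e, the ectonucleotidase CD73, by 1.42 ± 0.30 (adjusted p = 0.00208) and Vkorc1, the vitamin K reductase that serves Mgp and other Gla proteins, by 0.98 ± 0.13 (adjusted p = 7.89e-05). The falls of Enpp1 and Nt5e came mainly through DC, and their HC and GER arrays overlapped. Enpp1 averaged 7.32 in HC, 7.79 in GER and 10.52 in DC, and Nt5e 8.42, 8.68 and 11.01. Of 14 regulators 4 fell and 1 rose. Pth1r averaged 10.57 in HC and was undetected on all GER and DC arrays, so that HC exceeded them at least 10.9-fold (adjusted p = 1.26e-10). Tnfrsf11b fell by 3.22 ± 0.40 (adjusted p = 3.88e-05), to an HC mean of 6.75 near background. It was detected on 2 of 4 HC arrays, so the size of this fall is uncertain. Of 6 osteopontin receptors 4 fell, Itgb6 by 1.70 ± 0.18 (adjusted p = 1.2e-05), Cd44 by 1.27 ± 0.36 (adjusted p = 0.0118), Itgb5 by 0.96 ± 0.17 (adjusted p = 0.000544) and Itgb1 by 0.86 ± 0.14 (adjusted p = 0.000398). For Cd44 the HC and GER arrays overlapped, at means of 9.50 and 10.06, and DC averaged 11.48.

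GER and DC differed at few pathway genes. In GER 1 gene was higher, 3 were lower and 40 did not pass, where 0.892% of all genes were higher and 3.27% lower. Enpp1 and Nt5e, which act one after the other on extracellular ATP, were both lower in GER, by -2.74 ± 0.36 (SE, adjusted p = 0.000947) and -2.33 ± 0.40 (adjusted p = 0.00547). Enpp1 averaged 7.79 in GER and 10.52 in DC, and Nt5e 8.68 in GER and 11.01 in DC. Sparcl1 was higher in GER by 1.30 ± 0.20 (adjusted p = 0.00264). Thbs1, thrombospondin 1, passed as lower (adjusted p = 0.0487) but was undetected in GER, where the dimmest detected probe lay above the DC mean of 7.07, so no fold can be given. Cd44, at 10.06 in GER and 11.48 in DC, did not pass (difference -1.42 ± 0.48, adjusted p = 0.163). DC had 2 arrays, and without DC B the counts were 0 higher and 1 lower.

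The members were set against each other by Pearson correlations over the 13 arrays, which carry no test and share the 13 libraries. Ibsp and Alpl correlated at 0.86 with BM and 0.41 over the 12 arrays without it, 11 of which had no detected Ibsp. Spp1 correlated with Mgp at 0.76, and 0.70 without BM, and with Alpl at 0.70, and 0.71 without BM. Alpl and Mgp correlated at 0.72, and 0.56 without BM. Ibsp correlated with Mgp at 0.61, and 0.35 without BM, and with Spp1 at 0.52, and 0.51 without BM. Sparc correlated with each of the others at between -0.02 and 0.12, and at between 0.05 and 0.47 without BM, the highest with Ibsp. Of all tested genes, among the closest to Spp1 were Itga7 (0.99) and Pbk (0.98), and those values were 0.99 and 0.97 without BM. The closest to Ibsp were Sertad4 (0.98), Clmp (0.98) and Scin (0.97), and without BM, on mostly undetected Ibsp values, they were at 0.87, 0.87 and 0.77. For Alpl they were Pou3f4 (0.93), Vcam1 (0.92) and Osr2 (0.92), with 0.77, 0.76 and 0.73 without BM. For Mgp they were Rdh5 (0.97), Nrf1 (0.95) and Actg2 (0.95), and for Sparc Fndc3b (0.95), Septin9 (0.94) and Mbtps1 (0.94).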

How the data were processed

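RNA of 13 sorted samples was amplified and biotin-labelled with an Ambion kit and hybridised to Illumina BeadChip arrays, per the labels' protocols. The deposited scanner table holds, per the file headers, each probe's mean bead intensity, neither normalized nor background-subtracted, its detection p-value, and the standard error and number of its beads. The authors' deposited log2 table was quantile normalized (median 8.143 on every array), as its values show. The scanner software is not given in the sources used here. Groups follow the sample titles. The title of GER C was followed where its description gives another letter.

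The scanner intensities were background-corrected (normexp from detection p-values, offset 16), quantile normalized and put on a log2 scale with neqc of limma 3.58.1 in R 4.3.3. A probe was kept if its detection p was under 0.01 on 2 or more arrays (13192), the probe with the highest mean stood for a gene, and 10088 genes were fitted with lmFit and eBayes, 1 mean per population (8 residual degrees of freedom). Differences are CD271high minus the average of HC, GER and DC, HC minus the mean of GER and DC, and GER minus DC, two-sided, Benjamini-Hochberg adjusted over all genes at 0.05. BM was described without a test. The fit was tested on simulated data. Probes were named by RefSeq accession (23876), Entrez ID (482) or the file's symbol (1339).

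The 6 genes and all lists were chosen with earlier results of these arrays known. The genes named are every probe of the 6, up to 4 of a list with the largest difference among those that passed or the 2 largest where none did, the sort and list markers, and the 3 genes closest to each of the 6 (1 of these for Spp1 is not reported here); Sp7, Cbfb, Col1a1, Col1a2, the genes on BM and those detected nowhere were named after their values were seen, as were the filter of 1 array used for lists on BM and the raising of undetected values to the dimmest detected probe. Alternatives changed the background correction, scaling, filter, probe rule, beadchip, replicate block and the arrays included. The arrays lay on 2 beadchips. The number of arrays limits the precision.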

Additional observations from a re-analysis of the deposited data

Results flagged for a closer look

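Of 24 sets of 4 HC values examined, 9 member probes and 15 lists, 3 held an array far from the other 3, and chance alone marks about 1 set in 20. All 3 were HC D: Mgp at 12.06, against 8.80 to 8.85 on HC A to C, the fibroblast and mesenchyme list at a mean level of 8.37, against 7.28 to 7.38, and the pericyte and smooth muscle list at 9.36, against 7.22 to 7.45. The gap of the highest array to the next was 0.983, 0.909 and 0.892 of the whole range in the order named. The Spp1 level of HC D, 8.54, was the highest of HC but was not marked.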

How the results depend on the processing

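The direction of the member differences held in 346 of 358 recomputed values, and 14 values moved by over 1 SD. Many of these values could not change, such as those that left out an array of a population not compared. The authors' scale and no background correction gave the same member differences and are not separate checks. The count is thus no measure of how stable the directions are. Without background correction, or on the authors' log2 scale, CD271high differences shrank to 2.71 for Spp1 and 0.41 for Alpl. Of the 12 that changed sign, those that also moved by over 1 SD were Spp1 in HC, at -0.45 within beadchip 1, where no array on either side was detected, and Sparc in CD271high, at -0.05 with median scaling. Counts of pathway genes moved by over 1.5 times within beadchip 2, where 1 array stands for CD271high and GER and is assumed to vary like the others: 6 higher and 4 lower in CD271high and 4 lower in HC. In GER against DC, 2 genes were higher with the mean of all probes of a gene and 2 with beadchip as a block. Leaving out 1 array gave 12 to 16 higher and 7 to 9 lower in CD271high, 4 to 5 and 18 to 20 in HC, and 0 to 1 and 1 to 3 in GER against DC. The 3 members at least 2-fold above all others on BM stayed 3 on the authors' scale, without background correction with genes detected on at least 1 array and with undetected values raised to the dimmest detected probe, the last 2 chosen after seeing the data.

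Replicate letters showed no clear pairing of the samples: 4 of 15 same-letter pairs correlated above 0.1. Their median was 0.05, against -0.00045 for different-letter pairs. With so few arrays per population, these correlations cannot show whether samples of the same letter were paired. With the letter as a replicate block the counts were 16 and 9 in CD271high, 5 and 21 in HC, and 1 and 3 in GER against DC. Signal over background limits Ibsp outside BM, Alpl and Spp1 outside BM and CD271high, and Runx2 throughout. Differences that rest on these values are uncertain in size.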
